A study of Mus musculus with 6 samples.

Results

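The genes described here make, sense and remove lysophosphatidic acid (LPA) in the mouse liver. They are *Enpp2*, the LPA receptor genes *Lpar1* to *Lpar6*, and the lipid phosphate phosphatase genes *Plpp1*, *Plpp2* and *Plpp3*, 10 genes in all, taken by symbol from the 54532 genes of the deposited table. Of these, 8 had enough counts to be tested, and *Lpar3* and *Lpar5* did not. RNA from whole livers of 3 control and 3 g*Spns1*-cKO mice was sequenced, 1 library per mouse, and the reads counted on each gene were compared. The g*Spns1*-cKO mice (labelled SPNS1 KO) carried *Spns1* fl/fl alleles with loxP sites around exon 3 and Rosa26Cre-ERT2. This Cre is active in the whole body and was induced by tamoxifen around the second week after birth, so the deletion was not limited to 1 cell type of the liver. The methods use *Spns1* fl/fl littermates without Cre as controls, whereas the labels call the control livers WT. The age at which the livers were taken for RNA is not given in the sources used here.

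LPA is a lysophospholipid that acts as a signal outside cells. Autotaxin, the secreted enzyme encoded by *Enpp2*, makes it by removing the head group of lysophosphatidylcholine (LPC), one of the lysolipids whose release from the lysosome is the subject of the study. LPA then binds G protein-coupled receptors on the cell surface, of which *Lpar1*, *Lpar2* and *Lpar3* belong to one sequence family (EDG) and *Lpar4*, *Lpar5* and *Lpar6* to another, related to purinergic receptors. The lipid phosphate phosphatases are membrane enzymes that dephosphorylate LPA and related lipid phosphates and so end the signal. In the liver, hepatocytes secrete autotaxin, and LPA signalling is known for its effects on hepatic stellate cells, the matrix-producing cells of the organ.

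The promoters of 3 receptor genes are shown because these genes gave different results in the comparison: 1 rose, and for the others the test was not passed, with values below 0 and near 0. The windows span 250 bases before to 50 bases after the transcription start, are taken from RefSeq on GRCm38.p6, and are written 5′ to 3′ on the strand of the gene. RefSeq windows were matched for 8 of the 10 genes; *Enpp2* and *Plpp1* had no match. Capitals mark motifs, searched on both strands: the E-box core CACGTG, the AP-1 motif TGANTCA, the TEAD motif GGAATG, and TATAAA of the TATA box. *Lpar1*, which was higher in the g*Spns1*-cKO group, has 3 annotated windows and the most CG-rich is shown (chr4:58553244-58553543, minus strand), with *Lpar2* (chr8:69822315-69822614, plus strand) and *Lpar6* (chr14:73237641-73237940, plus strand).
Lpar1: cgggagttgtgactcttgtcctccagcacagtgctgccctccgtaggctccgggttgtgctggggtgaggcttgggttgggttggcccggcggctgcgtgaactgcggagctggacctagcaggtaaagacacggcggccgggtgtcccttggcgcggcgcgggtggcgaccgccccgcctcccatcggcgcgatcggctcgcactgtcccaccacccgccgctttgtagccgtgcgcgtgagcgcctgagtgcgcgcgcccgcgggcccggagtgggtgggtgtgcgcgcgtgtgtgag
Lpar2: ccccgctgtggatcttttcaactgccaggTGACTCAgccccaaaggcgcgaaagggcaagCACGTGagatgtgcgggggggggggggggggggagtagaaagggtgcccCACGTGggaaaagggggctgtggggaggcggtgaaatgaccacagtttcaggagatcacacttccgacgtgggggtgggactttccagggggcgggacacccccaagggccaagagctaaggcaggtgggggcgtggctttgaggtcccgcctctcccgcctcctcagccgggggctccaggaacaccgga
Lpar6: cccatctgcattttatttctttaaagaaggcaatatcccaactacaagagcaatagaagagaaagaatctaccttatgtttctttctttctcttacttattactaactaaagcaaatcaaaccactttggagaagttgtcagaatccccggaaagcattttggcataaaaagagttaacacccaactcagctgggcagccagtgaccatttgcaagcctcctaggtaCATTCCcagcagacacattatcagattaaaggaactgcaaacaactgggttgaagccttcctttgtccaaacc
The *Lpar1* window holds 37 CG dinucleotides and none of the 4 motifs. The other *Lpar1* windows, not shown, hold 14 and 3 CG dinucleotides and also none of the motifs. The *Lpar2* window holds 15 CG dinucleotides, 2 E-boxes and 1 AP-1 motif. The *Lpar6* window holds 1 CG dinucleotide and 1 TEAD motif, on the minus strand. Over all 32851 windows the median was 7 CG dinucleotides, with quartiles of 3 and 20. E-boxes were present in 7.15% of all windows, AP-1 motifs in 7.81%, TEAD motifs in 14.7% and TATA boxes in 13.6%. These matches describe the letters of the windows and nothing about binding.

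The libraries held between 30350002 and 35295611 counts. TMM scaling (edgeR) was applied, and CPM are the counts per 1e6 scaled counts. The TMM factors were 0.834 to 0.873 for the controls and 1.16 to 1.18 for the g*Spns1*-cKO livers, so the scaling sets the direction of small differences. With library size only in place of TMM, the median over all genes of the log2 fold change moved from 0.014 to 0.46, and with upper-quartile scaling to 0.14. *Spns1*, the targeted gene, had a log2 fold change of -0.87 (SE 0.25, edgeR adjusted p = 0.0300, by a quasi-likelihood fit, adjusted over all genes by Benjamini-Hochberg). All 6 livers carried between 1731 and 2568 counts of the Y-linked gene *Ddx3y* and at most 5 of *Xist*, so sex did not differ between the groups. A threshold of 0.05 on the adjusted p called 21.3% of the 15449 genes tested higher and 20.5% lower in the g*Spns1*-cKO group. These shares are the background for the counts given below.

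Of the 8 LPA genes tested, 4 rose in the g*Spns1*-cKO group and 1 fell. *Enpp2*, *Lpar1*, *Lpar4* and *Plpp1* were higher, *Plpp3* was lower under TMM scaling, a call that was lost under upper-quartile scaling, with library size only and without 4 of the 6 livers in turn, and *Lpar2*, *Lpar6* and *Plpp2* did not pass the threshold. The median log2 fold change of the 8 genes was 0.53, against 0.014 over all genes tested. *Lpar4* passed the filter on low counts only through its g*Spns1*-cKO libraries, and without it 3 of 7 genes rose, 1 fell and the median was 0.31. In the same 4 genes each g*Spns1*-cKO liver had more CPM than each control liver, and in *Plpp3* each had fewer. Without *Lpar4*, the genes separated upwards were *Enpp2*, *Lpar1* and *Plpp1*. Over all genes tested the groups were separated in this way in 27.1% with g*Spns1*-cKO higher and in 26.9% with g*Spns1*-cKO lower. For a single gene, the two-sided exact permutation test of 3 mice against 3 cannot go below p = 0.1. Fewer cells of a type and less RNA per cell cannot be told apart in these whole-liver libraries.

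**Figure D1:**
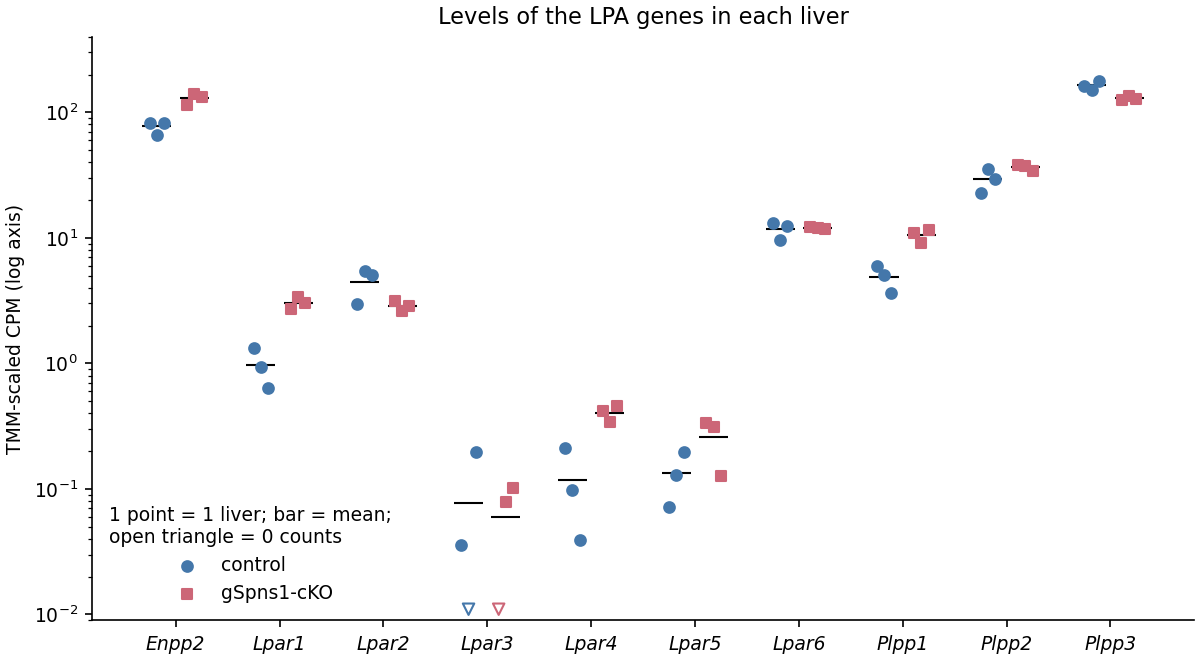
TMM-scaled CPM (log axis) of the 10 LPA genes in each liver, with 1 point per liver, black bars for the mean of 3 livers and open triangles for libraries with 0 counts. *Enpp2*, *Lpar1*, *Lpar4* and *Plpp1* lie higher in all 3 g*Spns1*-cKO livers than in the 3 control livers, and *Plpp3* lies lower. *Lpar4* was near the limit of detection and passed the filter on low counts only through its g*Spns1*-cKO libraries.

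*Enpp2* (ENSMUSG00000022425, chromosome 15 of GRCm38, 54838901 to 54952892, minus strand), the autotaxin gene, had 82.9, 65.95 and 82.6 CPM in controls 1 to 3 and 114.9, 140.0 and 132.0 CPM in g*Spns1*-cKO livers 1 to 3. The lowest g*Spns1*-cKO liver was above the highest control liver. The mean rose from 77.2 ± 9.70 to 128.9 ± 12.8 CPM (SD, n = 3), a 1.67-fold difference. Its log2 fold change was 0.74 (SE 0.13, edgeR adjusted p = 0.00134). The call held under each scaling, with values of 0.87 under upper-quartile scaling and 1.19 with library size only, and with each liver left out in turn, between 0.63 and 0.82. A long noncoding RNA gene on the opposite strand, *Gm26684*, shares 345 of the 5779 exon bases of *Enpp2*. It had a log2 fold change of -0.12 (edgeR adjusted p = 0.741). Whether counting used strand is not given in the sources used here.

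The genes of adipocytes, another known source of autotaxin, were checked beside *Enpp2*. *Adipoq* and *Plin1*, which define adipocytes, had at most 2 counts in any liver. The summed level of the 4 adipocyte markers was at least 20.1 CPM in each control liver and at most 15.2 CPM in each g*Spns1*-cKO liver. Nearly all of it came from *Fabp4* and *Cidec*, which other liver cells also express. These went in opposite directions. *Cidec* had a log2 fold change of -3.34 (edgeR adjusted p = 0.00406) and *Fabp4* one of 0.65 (edgeR adjusted p = 0.00724). *Enpp2* was also set against the summed counts of 7 hepatocyte markers (*Alb*, *Ttr*, *Apoa1*, *Apob*, *Hnf4a*, *Asgr1*, *Cps1*), most of which are albumin. It had 0.753, 0.674 and 0.845 counts per 1000 marker counts in the controls and 1.95, 2.06 and 1.97 in the g*Spns1*-cKO group. The groups did not overlap, and the mean ratio was 2.63 times as high in the g*Spns1*-cKO group. This ratio, taken within a library, does not depend on the scaling between libraries, but it was not particular to *Enpp2*. *Lpar6*, *Plpp2* and *Plpp3* also lay higher in every g*Spns1*-cKO liver by this measure, with mean ratios 1.63, 1.95 and 1.24 times as high. So did *Lpar1*, *Lpar4* and *Plpp1*, and among the tested members only *Lpar2* overlapped. *Alb* itself had a log2 fold change of -0.73. Of the 7 hepatocyte markers, 4 fell and none rose past the threshold.

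Among the receptors, *Lpar1* rose and *Lpar6*, the most abundant, did not pass the threshold. *Lpar1* (ENSMUSG00000038668, chromosome 4, 58435255 to 58553898, minus strand) encodes a receptor that couples to several G proteins. It had 37, 29 and 16 counts in the controls and 98, 130 and 118 in the g*Spns1*-cKO group. On the CPM scale these were 0.963 ± 0.342 and 3.04 ± 0.334 (SD, n = 3), a 3.13-fold difference with no overlap. The log2 fold change was 1.65 (SE 0.30, edgeR adjusted p = 0.00180). With each liver left out in turn the value stayed between 1.42 and 1.92, and it passed the threshold each time.

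*Lpar4* (chromosome X, 106920625 to 106933900, plus strand) encodes a receptor of the purinergic-like group. It was near the limit of detection, with 6, 3 and 1 counts in the controls and 15, 13 and 18 in the g*Spns1*-cKO group. A floor of 3 counts corresponded to between 0.0763 and 0.119 CPM, and its mean level was 0.117 ± 0.0886 CPM in the controls and 0.405 ± 0.0605 CPM in the g*Spns1*-cKO group (SD, n = 3). The log2 fold change was 1.74 (SE 0.61, edgeR adjusted p = 0.0408). *Lpar4* passed the filter on low counts only through its g*Spns1*-cKO libraries, so a difference in this direction is partly built into its being tested. The call was lost without control replicate 2 or 3 (edgeR adjusted p = 0.114 and 0.125) and without g*Spns1*-cKO replicate 1, 2 or 3 (edgeR adjusted p = 0.0827, 0.0682 and 0.129), as well as with a replicate block (edgeR adjusted p = 0.0678).

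*Lpar2* (chromosome 8, 69822429 to 69831102, plus strand), of the same family as *Lpar1*, had a value in the opposite direction to *Lpar1*. It had 2.99, 5.42 and 5.06 CPM in the controls and 3.14, 2.63 and 2.88 CPM in the g*Spns1*-cKO group. The groups overlapped through control replicate 1. The log2 fold change was -0.64 (95% interval -1.19 to -0.084, edgeR adjusted p = 0.0624). Without control replicate 1 it was -0.88 (edgeR adjusted p = 0.0122), and with library size only it was -0.20 (edgeR adjusted p = 0.533).

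*Lpar6* (ENSMUSG00000033446, chromosome 14, 73237895 to 73243294, plus strand) had the highest per-length level of the receptors. It had 13.0, 9.58 and 12.4 CPM in the controls and 12.3, 11.9 and 11.7 CPM in the g*Spns1*-cKO group. The 3 g*Spns1*-cKO livers lay within the range of the controls. The log2 fold change was 0.039, with a 95% interval of -0.28 to 0.36 (edgeR adjusted p = 0.848). With library size only the value was 0.48 (edgeR adjusted p = 0.0153), about the shift of the median of all genes. *Lpar6* lies inside *Rb1*, a gene on the opposite strand, and shares 408 of its 5400 exon bases with exons of *Rb1*. *Rb1* had a log2 fold change of -0.077 (edgeR adjusted p = 0.741).

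The remaining receptors were barely detected. *Lpar3* had 1, 0 and 5 counts in the controls and 0, 3 and 4 in the g*Spns1*-cKO group. *Lpar5* had 2, 4 and 5 counts in the controls and 12, 12 and 5 in the g*Spns1*-cKO group. The groups overlapped in both genes. When every gene with at least 1 count was tested, the adjusted p was 0.898 for *Lpar3* and 0.466 for *Lpar5* (edgeR), so no difference was detectable at this depth.

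**Figure D2:**
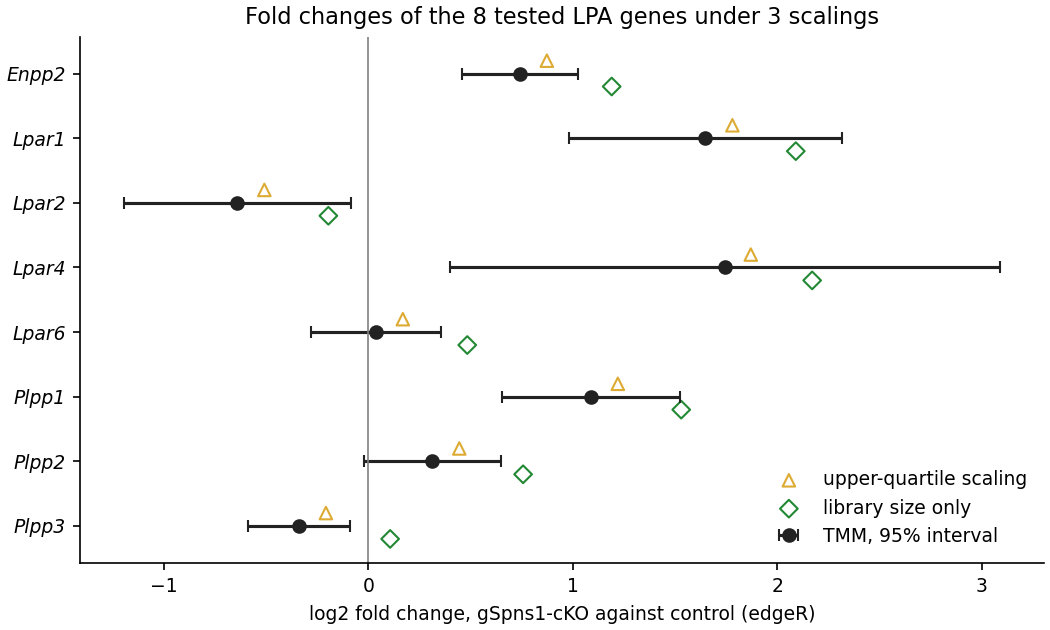
Log2 fold change of g*Spns1*-cKO against control livers (edgeR) for the 8 LPA genes tested, as filled points with 95% intervals under TMM scaling and open symbols under upper-quartile and library-size-only scaling. *Enpp2*, *Lpar1*, *Lpar4* and *Plpp1* lie above 0 under all 3 scalings, whereas *Plpp3* lies at -0.34 under TMM and at 0.11 with library size only. *Lpar4* passed the filter on low counts only through its g*Spns1*-cKO libraries.

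Of the phosphatases, *Plpp1* rose under each scaling, whereas *Plpp3* fell under TMM and had a value above 0 with library size only. *Plpp1* (ENSMUSG00000021759, chromosome 13, 112800792 to 112867894, plus strand) had 5.97, 5.10 and 3.63 CPM in the controls and 10.8, 9.10 and 11.4 CPM in the g*Spns1*-cKO group. All g*Spns1*-cKO livers were above all controls. The mean rose from 4.90 ± 1.18 to 10.5 ± 1.22 CPM (SD, n = 3), a 2.13-fold difference, or 1.09 ± 0.20 on the log2 scale (SE, edgeR adjusted p = 0.00168). The call held under each scaling and with each liver left out, between 0.91 and 1.24 on the log2 scale. *Plpp1* shares 452 of its 1750 exon bases with a gene on the opposite strand, the RNA helicase gene *Mtrex* (*Skiv2l2* in the deposited table). That gene was also higher, with a log2 fold change of 0.56 (edgeR adjusted p = 0.00345). How the shared bases were counted is not given in the sources used here.

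*Plpp3* (ENSMUSG00000028517, chromosome 4, 105157347 to 105232764, plus strand), the most abundant of the 10 per length, had 162.2, 151.3 and 178.8 CPM in the controls and 125.1, 135.7 and 128.4 CPM in the g*Spns1*-cKO group. The groups did not overlap on this scale. The mean fell from 164.1 ± 13.8 to 129.7 ± 5.41 CPM (SD, n = 3), and the log2 fold change was -0.34 (SE 0.11, edgeR adjusted p = 0.0339). This direction depended on the scaling. It was -0.21 under upper-quartile scaling (edgeR adjusted p = 0.163) and 0.11 with library size only (edgeR adjusted p = 0.424). Under TMM the call was also lost without control replicate 1 or 3 (edgeR adjusted p = 0.0568 and 0.118), without g*Spns1*-cKO replicate 1 or 3 (edgeR adjusted p = 0.0618 and 0.112), with a replicate block (edgeR adjusted p = 0.0601), and with at least 10 counts required in every library (edgeR adjusted p = 0.0556).

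*Plpp2* (chromosome 10, 79526430 to 79533796, minus strand) had 22.7, 35.5 and 29.7 CPM in the controls and 37.9, 37.1 and 34.2 CPM in the g*Spns1*-cKO group. The ranges overlapped, because control replicate 2 exceeded the lowest g*Spns1*-cKO liver. The log2 fold change was 0.31, with a 95% interval of -0.020 to 0.65 (edgeR adjusted p = 0.119). Without control replicate 1 it was 0.14 (edgeR adjusted p = 0.401) and without control replicate 2 it was 0.47 (edgeR adjusted p = 0.0315). It also passed under upper-quartile scaling, at 0.45 (edgeR adjusted p = 0.0342), and with library size only, at 0.76 (edgeR adjusted p = 0.00223).

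To compare levels between genes, CPM were divided by gene length and are given as CPM per kilobase. In control livers *Plpp3* stood highest at 51.9 ± 4.38, followed by *Plpp2* at 17.7 ± 3.89 and *Enpp2* at 13.4 ± 1.68 (SD, n = 3), of which the latter pair overlapped. *Plpp1* (2.80 ± 0.676) and *Lpar6* (2.16 ± 0.338) overlapped as well. *Lpar2* at 0.769 ± 0.225 and *Lpar1* at 0.225 ± 0.0798 stood apart from their neighbours. The ranges of *Lpar5*, *Lpar3* and *Lpar4*, each under 0.1 CPM per kilobase on average, overlapped at the bottom. In g*Spns1*-cKO livers *Plpp3* still stood highest, at 41.1 ± 1.71, while *Enpp2* (22.3 ± 2.21) overlapped with *Plpp2* (SD 1.19), the next in order. *Plpp1*, at 5.98 ± 0.698, no longer overlapped with *Lpar6*, at 2.22 ± 0.0517. *Lpar1* (0.708 ± 0.0778) stood above *Lpar2* (0.494 ± 0.0436), the reverse of their order in the controls, and their ranges did not overlap in either group.

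The share of each gene within its family, taken per length in each library, does not depend on the scaling between libraries. *Lpar1* made up 9.18%, 7.24% and 4.18% of the receptor level in the controls and 16.9%, 21.0% and 19.5% in the g*Spns1*-cKO group, without overlap. *Lpar6* made up 65.2 ± 6.82% and 59.8 ± 0.976% (SD, n = 3), with overlap, and *Lpar2* 23.5 ± 7.72% and 13.3 ± 1.22%. The lowest *Lpar2* share among the controls, 15.3%, was above the highest in the g*Spns1*-cKO group, 14.3%. The receptor level summed over the 6 genes was 3.30 ± 0.249 CPM per kilobase in the controls and 3.71 ± 0.100 in the g*Spns1*-cKO group (SD, n = 3). Within the phosphatases, the share of *Plpp3* was 71.7 ± 4.75% in the controls and 59.4 ± 1.65% in the g*Spns1*-cKO group, that of *Plpp1* was 3.91 ± 1.14% and 8.67 ± 1.18%, and that of *Plpp2* was 24.4 ± 4.91% and 31.9 ± 1.45%. For each of these phosphatases the groups did not overlap. The highest control share of *Plpp2*, 29.7%, was close to its lowest g*Spns1*-cKO share, 30.5%. Shares within a family add up to the whole in each liver, so they are not independent of each other. The phosphatase level summed over the 3 genes was 72.5 ± 4.08 and 69.1 ± 1.39 CPM per kilobase (SD, n = 3). Unlike the shares, the summed levels of both families depend on the scaling between libraries. With library size only, the log2 fold changes of *Plpp1*, *Plpp2* and *Plpp3* were all above 0, at 1.53, 0.76 and 0.11.

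**Figure D3:**
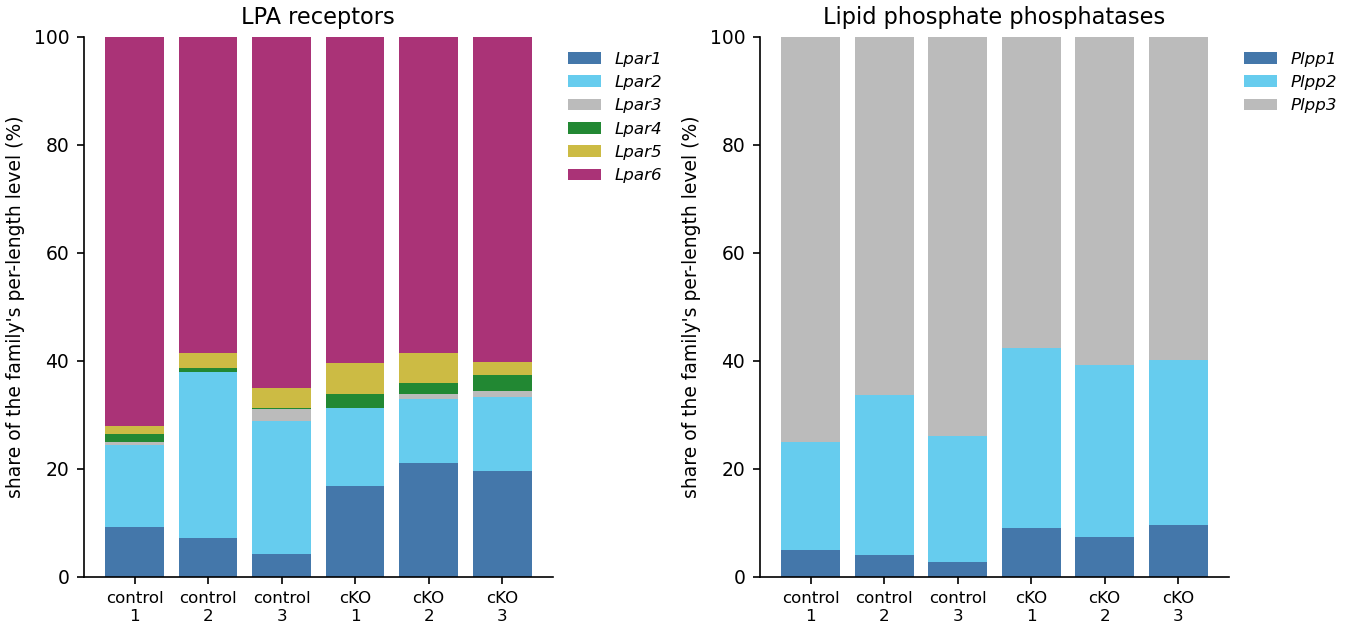
Share (%) of each gene in the per-length level of its family, stacked to the whole in each of the 3 control and 3 g*Spns1*-cKO livers (cKO on the axis), for the 6 LPA receptors and the 3 lipid phosphate phosphatases. *Lpar1* takes between 16.9% and 21.0% in the g*Spns1*-cKO group against at most 9.18% in the controls, and *Plpp3* takes at most 60.8% against at least 66.3%.

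The ratio of autotaxin to the main phosphatase was compared in the same way. *Enpp2* over *Plpp3*, per length, was 0.279, 0.238 and 0.253 in the controls and 0.502, 0.564 and 0.562 in the g*Spns1*-cKO group. The groups did not overlap, and the mean ratio was 2.11 times as high in the g*Spns1*-cKO group. For *Plpp1* over *Plpp3* the means were 0.0547 ± 0.0158 and 0.146 ± 0.0219, and for *Lpar1* over *Lpar6* 0.105 ± 0.0354 and 0.320 ± 0.0389 (SD, n = 3), also without overlap. These 3 pairs were chosen after the values were seen.

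Markers of several cell types also differed between the groups. All 8 macrophage markers rose, with log2 fold changes between 1.14 and 3.10, and so did all 5 cholangiocyte markers, between 1.64 and 3.11. Of 7 stellate cell markers 6 rose and none fell, and of 7 endothelial markers 5 rose and none fell. The summed stellate cell markers (*Lrat*, *Reln*, *Pdgfrb*, *Des*, *Dcn*, *Col1a1*, *Lum*) were 183.0 to 211.0 CPM in the controls and 479.4 to 551.7 CPM in the g*Spns1*-cKO group. The summed macrophage markers were between 147.8 and 220.9 CPM and between 464.9 and 671.2 CPM, the cholangiocyte markers between 44.2 and 62.9 CPM and between 170.3 and 279.2 CPM, and the endothelial markers between 163.2 and 179.7 CPM and between 227.4 and 267.2 CPM. Of the lymphocyte markers 2 of 7 rose, of the neutrophil markers all 3 tested of 4, and of the platelet markers 1 of the 2 tested of 4, and none fell. Within these lists *Pdgfrb*, a stellate cell receptor gene, had a log2 fold change of 1.82 and *Cd68*, a macrophage gene, 2.14.

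Relative to these markers, *Lpar1* no longer separated the groups for every cell type. Most of the stellate cell sum came from *Dcn*, with means of 113.0 CPM in the controls and 334.8 CPM in the g*Spns1*-cKO group. Most of the cholangiocyte sum came from *Spp1*, with means of 44.6 and 195.1 CPM. Ratios to these sums therefore largely follow a single gene each. It had 6.24, 4.75 and 3.45 counts per 1000 stellate cell marker counts in the controls and 5.68, 6.14 and 5.69 in the g*Spns1*-cKO group, which overlap. It overlapped likewise relative to macrophage markers, with means of 5.53 and 5.81, and relative to cholangiocyte markers, with means of 20.2 and 14.2. Relative to endothelial markers it did not overlap, with means of 5.60 and 12.3. *Plpp1* overlapped relative to stellate cell markers (means of 24.6 and 20.3) and did not relative to endothelial markers (28.5 and 42.0). *Enpp2* was lower in the g*Spns1*-cKO group relative to stellate cell markers, with means of 392 and 248, and overlapped relative to endothelial markers, with means of 452 and 524. *Lpar4* showed the same overlaps as *Lpar1* over the 4 non-hepatocyte lists. With 6, 3 and 1 counts in the controls, and a filter passed only through its g*Spns1*-cKO libraries, nothing can be drawn from these *Lpar4* ratios. The part of cell composition in these differences was not tested.

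**Figure D4:**
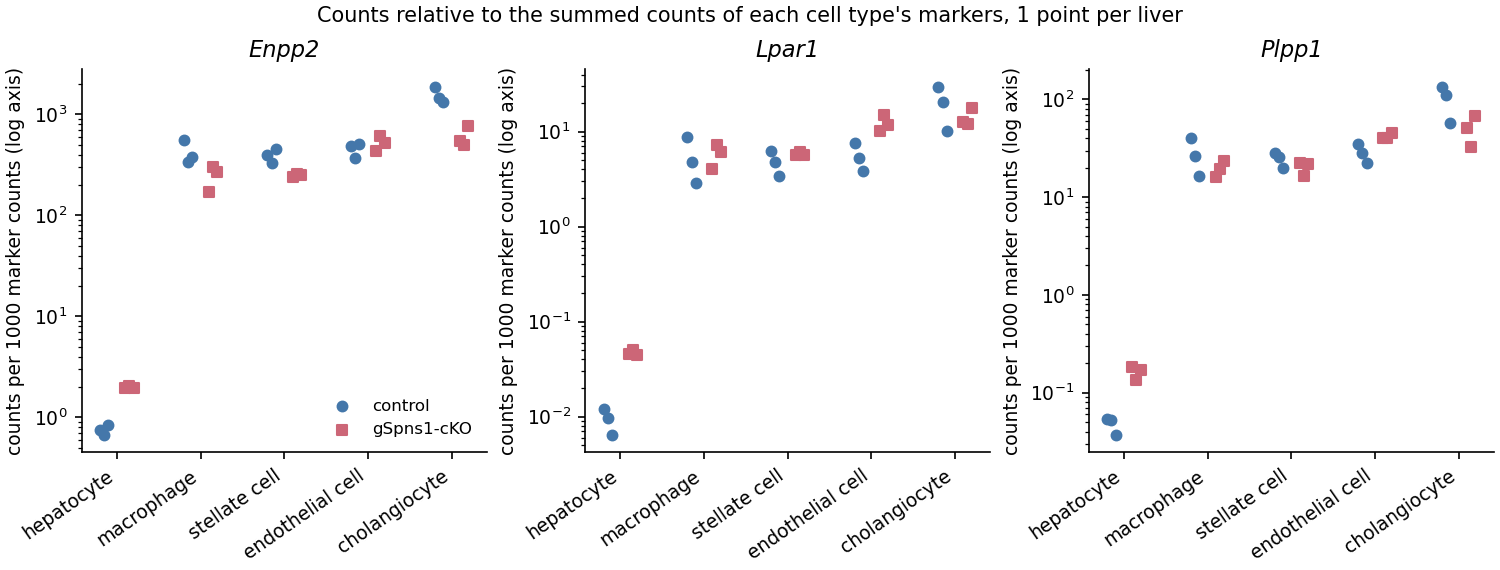
Counts of *Enpp2*, *Lpar1* and *Plpp1* per 1000 summed counts of the markers of each of 5 cell types (log axis), 1 point per liver. *Lpar1* lies at 3.45 to 6.24 in control and 5.68 to 6.14 in the g*Spns1*-cKO group relative to stellate cell markers, whereas relative to hepatocyte markers all 3 genes lie higher in every g*Spns1*-cKO liver. *Lpar4*, *Lpar6*, *Plpp2* and *Plpp3*, which are not drawn, also did so relative to hepatocyte markers.

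The rest of LPA metabolism was described with 4 lists of 25 further genes, of which 20 were tested. Of these 20, 4 rose and 4 fell, against backgrounds of 21.3% and 20.5% of all genes, and their median log2 fold change was 0.19. The median was 0.33 with upper-quartile scaling, 0.64 with library size only, 0.35 without g*Spns1*-cKO replicate 1 and 0.077 without g*Spns1*-cKO replicate 2. With library size only, 10 were higher and 2 lower. Without control replicate 3, 1 rose and 2 fell, without g*Spns1*-cKO replicate 3 these were 2 and 2, and 1 rose without g*Spns1*-cKO replicate 2. Among other genes listed with LPA production, not all of which encode enzymes that make LPA itself, 4 of 6 were tested and 1 rose. *Gdpd1*, which encodes a lysophospholipase D of the cell interior, rose from 0.568 ± 0.188 to 3.21 ± 0.235 CPM (SD, n = 3), with a log2 difference of 2.49 ± 0.31 (SE, edgeR adjusted p = 0.000193). *Pla1a*, a phosphatidylserine phospholipase gene, had 49.6 ± 3.50 and 54.5 ± 8.58 CPM and a log2 fold change of 0.14 (edgeR adjusted p = 0.418).

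Inside cells, LPA is an intermediate of glycerolipid synthesis, made by glycerol-3-phosphate acyltransferases and used by LPA acyltransferases. *Gpat4* fell from 322.4 ± 33.8 to 119.9 ± 8.42 CPM (SD, n = 3), with a log2 difference of -1.43 ± 0.13 (SE, edgeR adjusted p = 3.42e-05), and was the only one of the 4 genes of its step to pass. *Gpam*, which encodes a mitochondrial enzyme, had a log2 fold change of 1.00 (edgeR adjusted p = 0.150). It had 6150, 2461 and 2184 counts in the controls and 10310, 7035 and 11786 in the g*Spns1*-cKO group. Without control replicate 1 its value was 1.61 (edgeR adjusted p = 0.00097), and with a replicate block it was 1.13 (edgeR adjusted p = 0.0186). Of the 5 LPA acyltransferase genes, *Agpat2* and *Agpat3* fell and *Agpat4* and *Agpat5* rose. *Agpat2* fell from 247.0 ± 16.3 to 119.6 ± 11.3 CPM, with a log2 difference of -1.05 ± 0.12 (SE, edgeR adjusted p = 0.000141). *Agpat3*, *Agpat4* and *Agpat5* had log2 fold changes of -0.47, 0.92 and 0.42, and each lost its call without at least 1 of the livers. The fall of *Agpat3* depended on the scaling, with -0.34 under upper-quartile scaling (edgeR adjusted p = 0.0551) and -0.026 with library size only (edgeR adjusted p = 0.876). *Agpat1* had a log2 fold change of 0.066 (edgeR adjusted p = 0.725).

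Of 10 other lipid phosphatase genes, 7 were tested, 1 rose and 1 fell. *Acp6*, a mitochondrial LPA phosphatase gene, had 43.3 ± 3.36 CPM in the controls and 33.3 ± 3.20 CPM in the g*Spns1*-cKO group (SD, n = 3), a log2 fold change of -0.38 (edgeR adjusted p = 0.0203) that turned to 0.067 with library size only. Its call was lost under upper-quartile scaling (edgeR adjusted p = 0.107) and without control replicate 1 or 3 or g*Spns1*-cKO replicate 3 (edgeR adjusted p = 0.0511, 0.0662 and 0.0842). *Plppr3* had 0.68 (edgeR adjusted p = 0.0494) and lost its call under 4 alternatives in the fit and without 5 of the 6 livers in turn. *Plpp5* and *Plpp6*, relatives of the members, had log2 fold changes of 0.32 and 0.10 (edgeR adjusted p = 0.0898 and 0.598).

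**Figure D5:**
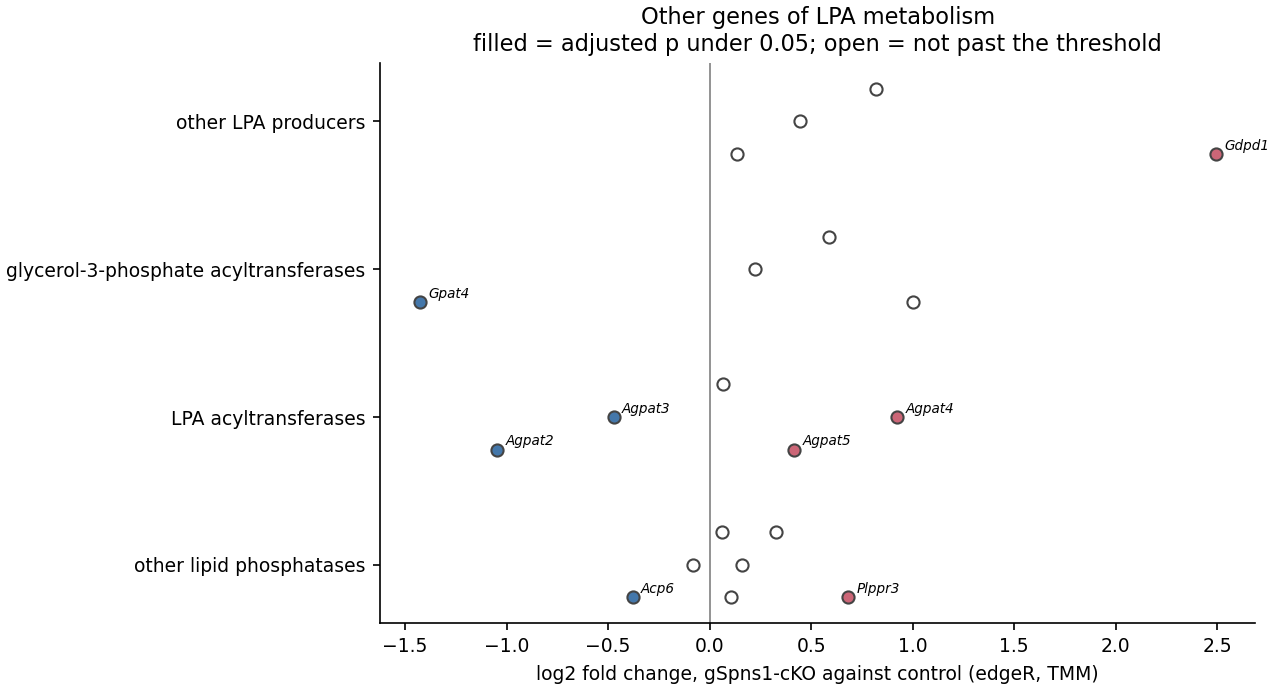
Log2 fold change (edgeR, TMM scaling) of the 20 tested genes of 4 further lists of LPA metabolism, 1 point per gene, filled and named where the adjusted p was under 0.05. *Gpat4* at -1.43 and *Agpat2* at -1.05 lie lowest, and *Gdpd1* at 2.49 lies highest.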

How the data were processed

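RNA of 6 mouse livers was analysed, 3 control and 3 g*Spns1*-cKO, grouped from the sample titles. The authors deposited 1 table with whole-number counts per gene and library, together with FPKM values. Per the submitters' processing notes, fastp, HISAT2 2.0.5, featureCounts 1.5.0-p3 and the mm10 build were used; strand setting is not given in the sources used here. Libraries were poly-A selected. The table also holds the authors' own comparison (means per group, fold changes and p-values), which was not used.

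The edgeR package (4.0.16, under R 4.3.3) was used. Its filterByExpr kept 15449 of 54532 genes, which were scaled by TMM and compared by the quasi-likelihood test with robust fitting and Benjamini-Hochberg adjustment over all genes tested. Standard errors are the log2 fold change over the square root of F. Intervals are unadjusted. The FPKM values, scaled to length and library by the authors, were used only to check levels. Gene positions of all members equal those of GENCODE M21 (GRCm38). Alternatives were DESeq2 1.42.0, limma-voom (limma 3.58.1), other scalings and filters, protein-coding genes, a replicate block, a threshold of 0.01 and leaving out each liver. Scripts were tested on simulated data.

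The members and lists were chosen with earlier results of these data known; promoter motifs and within-library ratios were chosen after values were seen. Members were all named; of the other lists, the 4 largest changes past the threshold whose mean reached 1 CPM, and up to 3 genes of at least 10 CPM that did not pass. Nothing in the labels says how mice were related, so p-values measure the spread between these livers. Reads carry no molecular identifiers, and floors cover counting error only. Replicates of a group differed by more than sampling noise (38.8 to 114 by chi-square per gene) and were counted separately. Further pathway genes enter only the counts over 47 genes, and are named only where a value turned and passed the threshold with library size only.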

Additional observations from a re-analysis of the deposited data

How the results depend on the processing

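The number of LPA genes that rose, 4, was between 3 and 4 with each liver left out, 6 with library size only, 5 with upper-quartile scaling and 3 with DESeq2, with either other filter, with the replicate block and at a threshold of 0.01. The number that fell, 1 (*Plpp3*), was between 0 and 1 with each liver left out. It was 0 with library size only, with upper-quartile scaling, with at least 10 counts in every library, with the replicate block and at a threshold of 0.01, and 2 with DESeq2 and with at least 1 count in any library, where *Lpar2* also passed. Over all genes, library size only gave 7289 higher and 970 lower, and a threshold of 0.01 gave 1983 higher and 1907 lower. Some of the other pathway genes are given only here. For all 47 other pathway genes tested, 14 higher and 5 lower, library size only gave 32 higher and 2 lower, upper-quartile scaling 3 lower, and a threshold of 0.01 8 higher and 3 lower. With each liver left out these were between 8 (without control replicate 3) and 14 higher and between 3 (without replicate 3 of either group) and 5 lower. With library size only, *Plpp3* turned to 0.11, *Acp6* to 0.067, the G protein subunit genes *Gnai3* and *Gna11* to 0.31 and 0.37, and the small GTPase gene *Rhoa* to 0.44 on the log2 scale. *Gnai3* and *Gna11* are named because their values turned and passed the threshold with library size only (edgeR adjusted p = 0.0355 and 0.0137). Values that turned without a call under either scaling are not listed. With that scaling the median over all genes was 0.46. Without division by length, the share of *Plpp1* in its family differed by 3.44 percentage points in place of 4.76. DESeq2 gave *Lpar4* an adjusted p of 0.071.

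The labels do not say that replicate numbers mark pairs. Same-numbered livers had correlations of their deviations from the group means of 0.0469, 0.0334 and -0.0225. The replicate block called 3084 genes higher and 3016 lower, and *Plpp3* and *Lpar4* lost their calls. Depth limits *Lpar3*, *Lpar4* and *Lpar5*, with at most 18 counts in any liver.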

Other observations

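*Liph*, which encodes a phospholipase that makes LPA from phosphatidic acid, had 0, 3 and 0 counts in the controls against 11, 16 and 3 in the g*Spns1*-cKO group, too few to pass the filter on low counts. *Plppr1*, a relative of the lipid phosphatases expressed mainly in the nervous system, had 0, 1 and 3 counts against 8, 24 and 3. When every gene with at least 1 count was tested, *Liph* had a log2 fold change of 2.80 (edgeR adjusted p = 0.0351) and *Plppr1* 2.58 (edgeR adjusted p = 0.0323), and in both the groups overlapped. Both were chosen after their values were seen.

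The ratio of *Gpat4* to *Gpam*, per length, was 0.789, 2.19 and 2.40 in the controls and 0.256, 0.378 and 0.212 in the g*Spns1*-cKO group, without overlap.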
